A study of Mus musculus with 4 samples.

Results

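The genes of the mouse major histocompatibility complex (MHC) and of antigen presentation were followed in 4 kidney RNA libraries. The members were the rows whose gene name starts with H2-, the prefix of mouse MHC genes, together with B2m, Tap1, Tap2, Tapbp, Psmb8, Psmb9, Psmb10, Cd74, Ciita and Nlrc5. Names with -ps (pseudogene) were left out, which removed 2 rows. This gave 52 members, 42 of them H2- genes and 10 others, of 38924 genes listed, and 47 of the members lie on chromosome 17 of the mouse build GRCm38. The RNA was from kidney of CB-17 SCID females. These mice are on the BALB/c background and lack mature B and T lymphocytes. The saline group (2 libraries) received saline by tail vein, and the immune complex group (2 libraries) received complexes of IgG with Gd-IgA1, galactose-deficient IgA1, the antigen of autoantibodies in IgA nephropathy. Both groups had 3 injections over 7 days, and the labels give no age. Each library held RNA of a piece of kidney, and nothing in the labels says which animal or whether pooled animals gave it, so the p-values rest on the variation among these libraries, which may be technical.

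MHC class I molecules stand on nearly all nucleated cells and show peptides from inside the cell to CD8 T cells and natural killer cells. Their peptides are cut by the proteasome, whose immunoproteasome subunits replace the constitutive ones under interferon gamma, are pumped into the endoplasmic reticulum by the Tap1 and Tap2 transporter and are loaded with the help of tapasin (Tapbp). Class II molecules show peptides from endosomes to CD4 T cells, are held ready by the invariant chain (Cd74) and receive peptide with the help of H2-DM. In kidney, class II is carried mainly by macrophages and dendritic cells and can be induced on tubule cells. Nlrc5 and Ciita are the transactivators of the class I and class II promoters. BALB/c-related mice carry the H2d haplotype, whereas the reference genome is C57BL/6J, which carries H2b. Reads of the most polymorphic genes were therefore placed on sequence of another haplotype.

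The class I genes are close copies of each other in parts of their sequence, which bears on how their reads could be placed. A stretch of 90 coding bases of the domain next to the membrane shows this. It was chosen as the H2-K1 stretch of this length most alike in the other genes shown. It is given below from the GRCm38 transcripts, 5′ to 3′ on the coding strand, with capitals where a gene differs from H2-K1.
H2-K1, chr17:33997343-33997432, minus strand: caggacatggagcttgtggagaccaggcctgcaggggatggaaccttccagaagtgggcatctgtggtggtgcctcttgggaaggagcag
H2-D1, chr17:35265912-35266001, plus strand: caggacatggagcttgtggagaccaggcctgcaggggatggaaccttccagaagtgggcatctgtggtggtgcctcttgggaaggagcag
H2-Q6, chr17:35427992-35428081, plus strand: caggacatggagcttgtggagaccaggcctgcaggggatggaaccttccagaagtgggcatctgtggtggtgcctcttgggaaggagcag
H2-Q4, chr17:35382986-35383075, plus strand: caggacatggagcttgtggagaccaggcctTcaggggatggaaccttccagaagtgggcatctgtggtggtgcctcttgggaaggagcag
H2-Q10, chr17:35473211-35473300, plus strand: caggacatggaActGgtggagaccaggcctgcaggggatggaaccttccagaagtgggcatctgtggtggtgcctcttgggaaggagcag
H2-T23, chr17:36030880-36030969, minus strand: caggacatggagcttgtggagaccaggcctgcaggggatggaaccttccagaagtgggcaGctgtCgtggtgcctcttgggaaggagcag
H2-T22, chr17:36040536-36040625, minus strand: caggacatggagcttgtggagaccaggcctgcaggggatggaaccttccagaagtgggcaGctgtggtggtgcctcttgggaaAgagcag
H2-M3, chr17:37272397-37272486, plus strand: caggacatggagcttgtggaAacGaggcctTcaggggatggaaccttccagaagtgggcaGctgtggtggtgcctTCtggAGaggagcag
H2-K1, H2-D1 and H2-Q6 were identical over the 90 bases. H2-Q4 differed at 1 base, H2-Q10, H2-T23 and H2-T22 at 2 bases each, and H2-M3 at 8 bases. A read that falls inside this stretch of H2-K1, H2-D1 or H2-Q6 cannot be assigned to 1 of them. The likeness is less elsewhere: over all their transcripts, H2-K1 shared 9.6% of its 50-base windows with other genes and H2-D1 12.8%.

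The promoters show what the class II and class I genes share on the regulatory side. The 150 bases before the RefSeq transcription start of 3 class II genes follow (GRCm38.p6, 5′ to 3′ on the gene's strand). Capitals mark CCAAT on either strand, the core of the Y box that the factor NF-Y binds.
H2-Aa promoter, chr17:34287824-34287973, minus strand: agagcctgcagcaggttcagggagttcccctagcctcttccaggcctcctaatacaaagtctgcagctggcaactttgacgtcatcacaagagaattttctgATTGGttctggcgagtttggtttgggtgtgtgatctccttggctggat
H2-Eb1 promoter, chr17:34305717-34305866, plus strand: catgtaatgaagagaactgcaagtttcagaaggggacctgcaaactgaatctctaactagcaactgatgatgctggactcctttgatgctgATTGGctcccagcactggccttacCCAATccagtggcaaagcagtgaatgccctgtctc
H2-DMb1 promoter, chr17:34153041-34153190, plus strand: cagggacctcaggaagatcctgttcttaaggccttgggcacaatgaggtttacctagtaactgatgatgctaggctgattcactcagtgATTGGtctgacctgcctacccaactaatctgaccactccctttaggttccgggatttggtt
H2-Eb1 and H2-DMb1 share the run aactgatgatgct, 13 bases long, which was found in 3 promoters of the RefSeq table, the other being that of Slc39a10. The same display for 2 class I heavy chains, the nonclassical gene H2-T23, the light chain B2m and Tap1 follows. For Tap1 the 275 bases are those where its 300-base window overlaps that of Psmb9, which is transcribed the other way.
H2-D1 promoter, chr17:35262944-35263093, plus strand: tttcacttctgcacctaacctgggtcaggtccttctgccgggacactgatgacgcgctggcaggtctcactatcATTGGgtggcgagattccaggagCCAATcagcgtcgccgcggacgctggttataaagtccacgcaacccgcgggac
H2-Q6 promoter, chr17:35424700-35424849, plus strand: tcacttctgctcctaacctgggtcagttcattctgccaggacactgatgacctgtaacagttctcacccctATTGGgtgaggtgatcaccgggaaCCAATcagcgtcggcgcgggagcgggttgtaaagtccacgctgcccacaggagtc
H2-T23 promoter, chr17:36032702-36032851, minus strand: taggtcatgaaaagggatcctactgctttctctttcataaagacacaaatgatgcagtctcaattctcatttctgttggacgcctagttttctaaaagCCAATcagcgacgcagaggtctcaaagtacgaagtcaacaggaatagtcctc
B2m promoter, chr2:122147537-122147686, plus strand: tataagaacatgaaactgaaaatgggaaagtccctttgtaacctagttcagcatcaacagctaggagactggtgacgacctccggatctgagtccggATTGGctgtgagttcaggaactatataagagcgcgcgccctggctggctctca
Tap1 promoter, chr17:34187306-34187580, plus strand: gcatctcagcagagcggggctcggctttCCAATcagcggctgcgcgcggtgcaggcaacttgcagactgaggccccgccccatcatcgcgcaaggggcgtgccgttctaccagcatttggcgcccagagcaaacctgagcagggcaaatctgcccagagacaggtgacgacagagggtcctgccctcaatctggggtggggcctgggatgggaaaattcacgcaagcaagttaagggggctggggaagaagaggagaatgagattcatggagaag
H2-D1 and H2-Q6 share cctaacctgggtcag, 15 bases long, present in 5 entries of the table, those of H2-D1, H2-K1, H2-Q6 and H2-Q7. Of the 52 members, 38 had an entry in the RefSeq promoter table. Members are counted here by gene and all promoters by entry, and members that are copies of each other are not separate cases. Within 250 bases before to 50 bases after the start, CCAAT was found in 32 of 38 members (84.2%), against 37.4% of all 32851 promoters. By entry it was found in 34 of the 42 entries of members. It began 100 to 40 bases before the start in 26 of 38 members, against 14.4% of all promoters. GAAA, 2 bases of any kind and again GAAA, a core of the interferon-stimulated response element, was found on either strand in 3 of 38 members (B2m, H2-T22 and H2-T23; all promoters 3.44%). TTCNNNGAA, the gamma-activated site, was found in 4 of 38 members (all promoters 8.30%). TGACGT, which is a core of the cyclic AMP response element and of the X2 box, was found in 8 of 38 (all promoters 7.51%). These are exact matches of letters and not measured binding sites. Looser forms were not searched, so a promoter without a match may still hold such an element.

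Levels per length were read from the authors' RPKM (exon reads scaled by exon length and by library size), and in every sequence of 4 values the order is saline 1, saline 2, immune complex 1 and immune complex 2. B2m, the light chain of all class I molecules, led with a mean of 352 RPKM over the 4 libraries and stood 107th among all genes. Cd74 followed with 163 RPKM, and the classical class I heavy chains H2-D1 and H2-K1 had 125 and 72.1 RPKM. The lowest B2m library (282 RPKM) lay above the highest Cd74 library (202 RPKM), while the ranges of Cd74 (105 to 202) and H2-D1 (106 to 143) overlapped. H2-D1 was above H2-K1 (60.3 to 82.7) in every library, and the ratio of their levels was 1.73, 1.76, 1.67 and 1.77. This ratio is of reads placed on the reference rows, whose haplotype is not that of these mice. Whether reads of a class I gene missing from the reference were counted as H2-D1 was not tested. Below the class I heavy chains by mean stood the class II chains H2-Eb1 (64.2 RPKM), H2-Ab1 (61.3) and H2-Aa (36.4). The ranges of H2-Eb1 (48.2 to 76.9) and H2-Ab1 (41.9 to 78.3) overlapped each other and that of H2-K1. The lowest H2-Ab1 library (41.9 RPKM) lay just above the highest H2-Aa library (41.7 RPKM). Tapbp, with 34.2 RPKM, was the most abundant of the peptide supply genes. The other members of that branch lay between 1.82 RPKM (Tap1) and 10.7 RPKM (Psmb10). The transactivators were low, at 0.345 RPKM for Nlrc5 and 0.111 RPKM for Ciita.

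**Figure D1:**
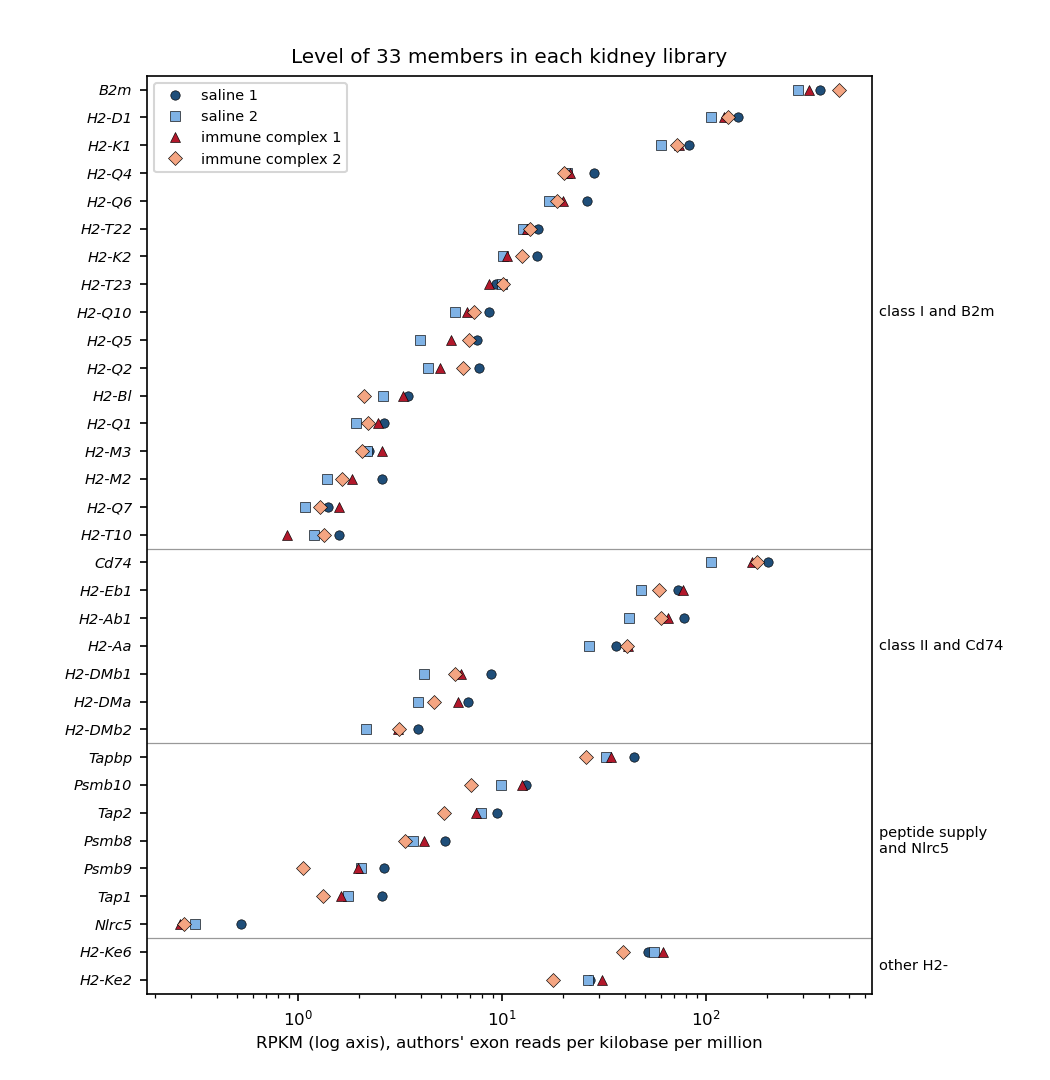
RPKM (log axis) of the 33 members with a mean of at least 1 CPM, ordered by role and level, with 1 symbol for each of the 4 libraries. B2m, Cd74 and H2-D1 are the top of the scale at 352, 163 and 125 RPKM, and saline 2 (light squares) is left of saline 1 (dark circles) for most members.

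The comparison between groups asks whether a week of immune complex injections went with another level of these genes in the kidney. No member passed the test. Of the 52 members, 35 passed the filter on low counts (filterByExpr), and 0 of 35 had an adjusted p under 0.05 in edgeR's quasi-likelihood test on total gene reads. The background was 0% called, 0 of 16334 genes. At an unadjusted p under 0.05 there were again 0 members, against 4.59% of all genes tested (749). On the reads counted as unique (unique gene reads) 0 members were called, against 0.00657% of 15225 genes (1 gene). On these reads 0 members had an unadjusted p under 0.05, against 4.6% of genes. DESeq2 called 0 members and 96 of 15883 genes (0.604%), and limma-voom called 0 members and 0 genes (0%). In bulk tissue, fewer cells of a type and less RNA per cell cannot be told apart for any value below.

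The log2 fold changes of immune complex over saline ranged from -0.58 (Psmb9) to 0.44 (H2-Aa), with 19 members above 0 and 16 below, where 51.9% of all genes were above 0. Their median was 0.02, against 0.01 for all genes tested, and the median size without sign was 0.163, against 0.159. For 28 of 35 members the fold change lay within 0.3 log2 units of 0. The groups did not overlap for 5 members: H2-Aa and H2-M3 were higher in both immune complex libraries (2 of 35; all genes 15.4%), and Psmb9, Tap1 and Tap2 were lower in both (3 of 35; all genes 14.6%). In all genes 30% had groups that did not overlap in either direction.

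**Figure D2:**
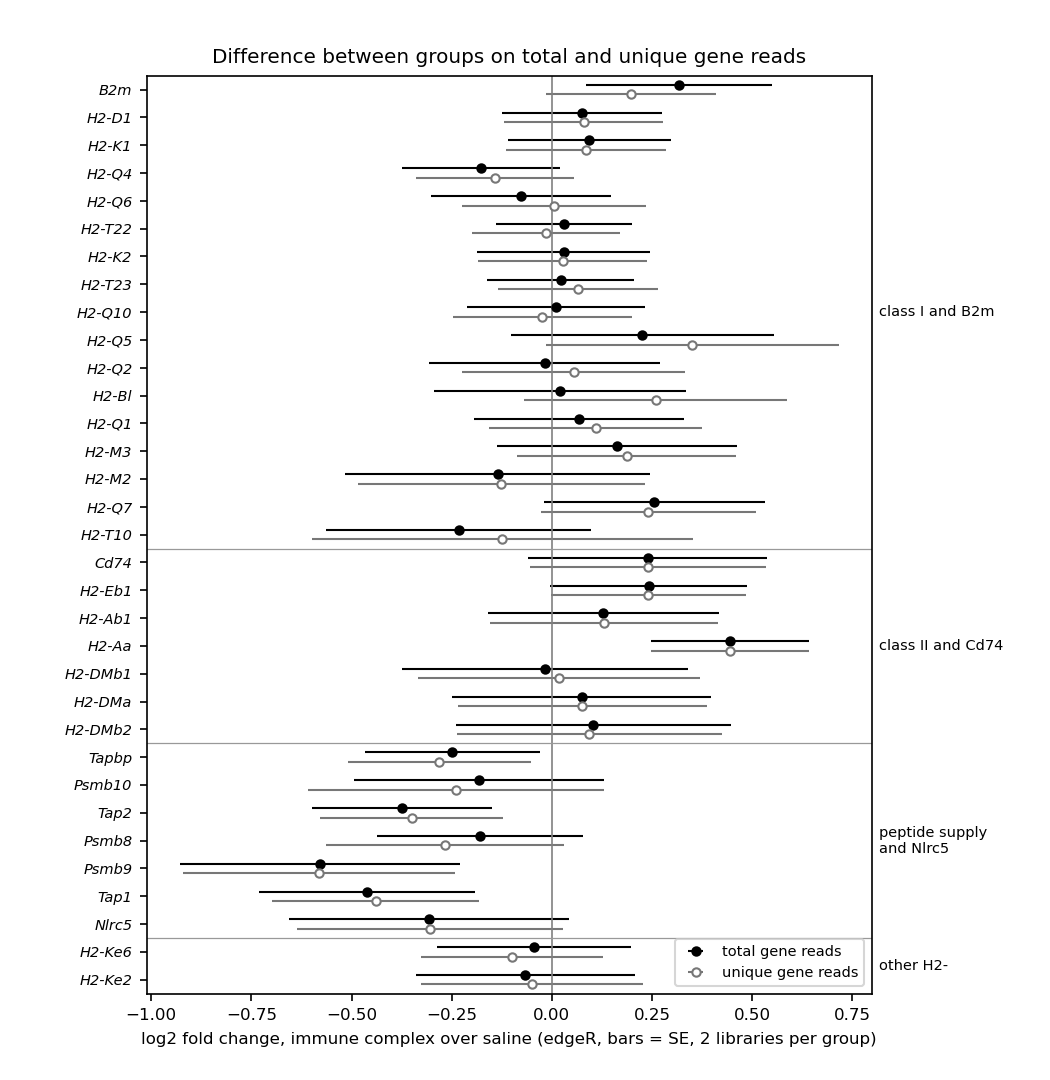
Log2 fold change of immune complex over saline with its standard error (edgeR, 2 libraries per group) for 33 members, on total gene reads (filled) and unique gene reads (open). The 33 values lie between -0.58 and 0.44 on total gene reads, the 6 peptide supply genes are all left of 0, and total and unique reads give nearly the same value for most members.

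Of the classical class I genes, the 2 heavy chains differed between the groups by less than their standard errors. The heavy chain H2-D1 had 361, 276, 329.6 and 342 CPM (counts scaled to the library size after TMM), a log2 fold change of 0.08 ± 0.20 (SE). H2-K1, the other heavy chain, had 210.1, 157, 198 and 194 CPM (0.09 ± 0.20). For both genes saline 1 was the highest library and saline 2 the lowest, with the immune complex libraries between them. B2m had 301, 242, 282 and 395 CPM (0.32 ± 0.23, unadjusted p = 0.215), and its highest value stood in immune complex 2 alone. The ratio of B2m to the 2 heavy chains in RPKM was 1.60, 1.69, 1.62 and 2.23, so that the light chain was up in that library relative to its partners. The sum of the 3 genes averaged 774 ± 139 CPM in the saline group and 871 ± 85.8 CPM in the other (SD, n = 2 each), a log2 difference of 0.17 without a test.

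B2m lies wholly inside Patl2 (100% of its region), which is annotated on the other strand, and only 20.4% of its reads were counted as unique, although 0% of its 50-base windows occur in transcripts of another gene. Its fold change on unique reads was 0.20 ± 0.21. No source used here says whether strand was used in counting, so how reads of unspliced Patl2 RNA in this region were counted is not known. Of the B2m reads, 0.58% lay in introns.

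Nonclassical class I genes of the Q, T and M regions have fewer alleles and varied roles. They comprised 26 members, of which 14 were tested, 9 above 0 and 5 below. Their summed level was 306, 234, 263 and 265 CPM, or 269.9 ± 50.6 CPM for saline against 264 ± 1.88 CPM for immune complex (SD, n = 2 each). H2-Q4, a Qb-1 gene, was the most abundant of them with 73.6, 55.3, 59.0 and 55.1 CPM (-0.18 ± 0.20). H2-Q6, of the Qa-2 group, had 53.5, 36.1, 43.6 and 41.3 CPM (-0.08 ± 0.23). In both genes saline 1 was above the other 3 libraries.

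H2-T22, a ligand of gamma delta T cell receptors, was steady at 50.2, 44.0, 47.5 and 48.6 CPM (0.03 ± 0.17). H2-T23, which encodes Qa-1 and is read by the NKG2A receptor, was as steady at 26.3, 28.6, 25.6 and 30.2 CPM (0.02 ± 0.18), and was 1 of 2 members with saline 2 above saline 1. H2-Q10, known as a secreted class I molecule of the liver, had 36.5, 25.4, 30.0 and 32.3 CPM (0.01 ± 0.22). All 3 genes had fold changes far smaller than their standard errors.

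The other members of the Q region had fewer reads. H2-Q2 had 20.8, 12.2, 14.9 and 17.7 CPM (-0.02 ± 0.29), and H2-Q5, annotated as a polymorphic pseudogene, had 11.8, 6.39, 9.59 and 11.6 CPM (0.23 ± 0.33). For both, saline 2 was the lowest library. H2-Q1 had 7.48, 5.72, 7.26 and 6.57 CPM (0.07 ± 0.26). H2-Q7, of the Qa-2 group, had 5.85, 4.64, 6.90 and 5.62 CPM (0.26 ± 0.28). Saline 2 was again the lowest in each of the 2, and the groups overlapped.

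The remaining tested genes of the T and M regions had few reads. H2-Bl, annotated as a polymorphic pseudogene, had 5.90, 5.11, 6.86 and 4.30 CPM (0.02 ± 0.32). H2-T10, close in sequence to H2-T22, had 5.56, 4.16, 3.32 and 4.96 CPM (-0.23 ± 0.33). Neither gene separated the groups. H2-M3, which presents N-formylated peptides of bacteria and mitochondria, had 3.30, 3.26, 4.03 and 3.31 CPM (0.16 ± 0.30). H2-M2 had 3.89, 2.18, 2.91 and 2.60 CPM (-0.14 ± 0.38). The groups of H2-M3 do not overlap only because immune complex 2 exceeded saline 1 in the last digit. H2-K2, a transcribed pseudogene beside H2-K1, had 34.9, 25.1, 28.8 and 32.4 CPM (0.03 ± 0.22), and 55.7% of its reads lay in introns.

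Class II genes were led by Cd74, which had 277, 148, 243 and 258 CPM (0.24 ± 0.30). H2-Ab1, the beta chain of I-A, had 125, 68.7, 110.3 and 101 CPM (0.13 ± 0.29). In both, saline 1 was the highest library and saline 2 the lowest by far. H2-Aa, the alpha chain of I-A, had 67.6, 50.6, 81.3 and 79.6 CPM (0.44 ± 0.20), the lowest unadjusted p of all members (0.0610, adjusted p = 0.99997). H2-Eb1, the beta chain of I-E, had 83.5, 56.9, 94.2 and 71.8 CPM (0.24 ± 0.25). H2-Aa was higher in both immune complex libraries than in both saline libraries, and H2-Eb1 overlapped. Saline 2 was the lowest library for each of these 4 genes, and their sum with H2-Eb2 was 553, 324, 529 and 511 CPM. The group means were 438 ± 162 CPM for saline and 519.8 ± 13.1 CPM for immune complex (SD, n = 2 each), a log2 difference of 0.25. Without saline 1 the difference was 0.68, and without saline 2 it was -0.10, so the choice of saline library set its sign.

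The 2 chains of I-A did not keep 1 ratio. H2-Ab1 over H2-Aa in RPKM was 2.15, 1.56, 1.56 and 1.47, with saline 1 apart from the other 3. Cd74 over H2-Ab1 was 2.58, 2.51, 2.58 and 2.96. The alpha chain of I-E is listed as H2-Ea-ps, because the reference haplotype lacks its promoter while H2d mice express it, and it is no member. It had 62.5, 40.8, 66.7 and 67.3 CPM, with 100% unique reads, and a log2 fold change of 0.38 ± 0.23 (unadjusted p = 0.153). H2-Eb1 over this gene was 1.21, 1.27, 1.31 and 0.977 in RPKM, so the I-E chains stood at similar levels per length in every library.

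The peptide exchange genes of class II were low and had the same libraries at the ends of their range. H2-DMa, the alpha chain of H2-DM, had 10.9, 6.29, 10.22 and 7.89 CPM (0.07 ± 0.32). H2-DMb1, a beta chain of H2-DM, had 12.8, 6.20, 9.77 and 8.98 CPM (-0.02 ± 0.36), and the second beta chain H2-DMb2 had 6.89, 3.78, 5.65 and 5.81 CPM (0.10 ± 0.34). For all 3 genes saline 1 was the highest and saline 2 the lowest library. H2-Oa and H2-Ob, the chains of H2-DO that B cells use to restrain H2-DM, had 8 and 34 reads over all 4 libraries (37.5% and 100% unique) and were not tested.

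The genes of peptide supply lay on the other side of 0 from the class II chains and Cd74. All 6 had a fold change below 0, the 4 tested class II chain and Cd74 genes had one above 0, and none of these passed the test. Psmb9, an immunoproteasome subunit, had 9.49, 7.57, 7.44 and 3.97 CPM (-0.58 ± 0.35, unadjusted p = 0.145). Tap1 had 13.97, 9.79, 9.63 and 7.61 CPM (-0.46 ± 0.27), and Tap2, the partner of Tap1 in the transporter, had 35.5, 30.8, 30.1 and 21.1 CPM (-0.37 ± 0.23). For these 3 the groups did not overlap, but saline 2 and immune complex 1 were nearly level. Tapbp had 171, 133, 144 and 111 CPM (-0.25 ± 0.22). Psmb8 had 13.9, 9.93, 11.6 and 9.40 CPM (-0.18 ± 0.26), and Psmb10 had 16.6, 13.0, 16.7 and 9.40 CPM (-0.18 ± 0.31). For all 6 genes immune complex 2 was the lowest library, and for 5 of them saline 1 was the highest. The 6 summed to 260.2, 204, 219.8 and 163 CPM, or 232 ± 39.5 CPM for saline against 191 ± 40.2 CPM for immune complex (SD, n = 2 each), a log2 difference of -0.28. That is about the spread within the groups (0.28), and without immune complex 2 it was -0.08. Leaving out 1 library took Psmb8 to 0.08 and Psmb10 to 0.17 at the highest, so 2 of the 6 did not keep their side of 0.

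Each immunoproteasome subunit was set against the constitutive subunit it replaces. Psmb8 over Psmb5 was 0.0403, 0.0275, 0.0314 and 0.0387 in RPKM, so the constitutive subunit was far more abundant. Psmb9 over Psmb6 was 0.0450, 0.0344, 0.0323 and 0.0261, and Psmb10 over Psmb7 was 0.154, 0.112, 0.139 and 0.0860. Only Psmb9 over Psmb6 had groups that did not overlap. Of these partners, Psmb5 and Psmb6 were themselves lowest in immune complex 2, where Psmb5 had 77.7 CPM and Psmb6 78.02 CPM, against 107 to 118 CPM in the other libraries.

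Both transactivators had a fold change below 0, and neither passed the test. Nlrc5 had 5.85, 4.12, 4.93 and 3.12 CPM (-0.31 ± 0.35), with 42.1% of its reads in introns. Ciita had 31, 12, 15 and 20 reads and a log2 fold change of -0.37 ± 0.57. Ciita had the largest gap of all tested members between the saline libraries, 1.35 log2 units, at a low depth. H2-T24 was the other tested member under 1 CPM, with 20, 14, 23 and 19 reads (0.23 ± 0.43).

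H2-Ke6 and H2-Ke2 carry the prefix for their place and present no antigen. H2-Ke6, now Hsd17b8 and an enzyme of fatty acid and steroid metabolism, had 77.3, 85.0, 96.1 and 61.3 CPM (-0.04 ± 0.24). H2-Ke2, named Pfdn6 in GENCODE M21 and a prefoldin subunit, had 31.4, 31.4, 38.0 and 21.9 CPM (-0.07 ± 0.27). Saline 1 was below saline 2 for H2-Ke6 and level with it for H2-Ke2, and immune complex 1 was the highest library for both.

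The 17 members that were not tested had few or no reads. For 7 of them there were 0 reads in all 4 libraries, and the other 10 had at most 11 reads in any library. Among the 12 genes of the M region, 10 had under 10 reads over all libraries, and the 6 H2-M10 genes, known from vomeronasal neurons, had 1 read in all. H2-Eb2 had 4 reads, H2-Q3 had 8, H2-T3, the gene of the thymus leukaemia antigen, had 5, and H2-M5 had 7. At this depth a difference in these genes was not detectable.

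The members had a regular difference within the saline group. Of 35 tested members, 33 were higher in saline 1 than in saline 2, against 49.6% of all genes, with a median gap of 0.42 log2 units against -0.002 for all genes. Saline 1 was the highest library for 24 of the 35 members (all genes 22.05%). Saline 2 was the lowest for 22 of them (62.9%; all genes 14.1%), and no member was lowest in saline 1 or highest in saline 2. Immune complex 2 was the lowest library for 11 members, and 33.9% of all genes were lowest there. The gap between the immune complex libraries had a median of 0.12 log2 units (all genes 0.006). The difference between the group means had a median of 0.03 (all genes -0.001). For 30 of 35 members (85.7%) the gap between the saline libraries exceeded the difference between the groups, as it did for 52.4% of all genes. All members together took 0.225%, 0.162%, 0.197% and 0.196% of the gene reads of their library. These counts describe 2 libraries per group, and the members share those libraries, so they carry no test.

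**Figure D3:**
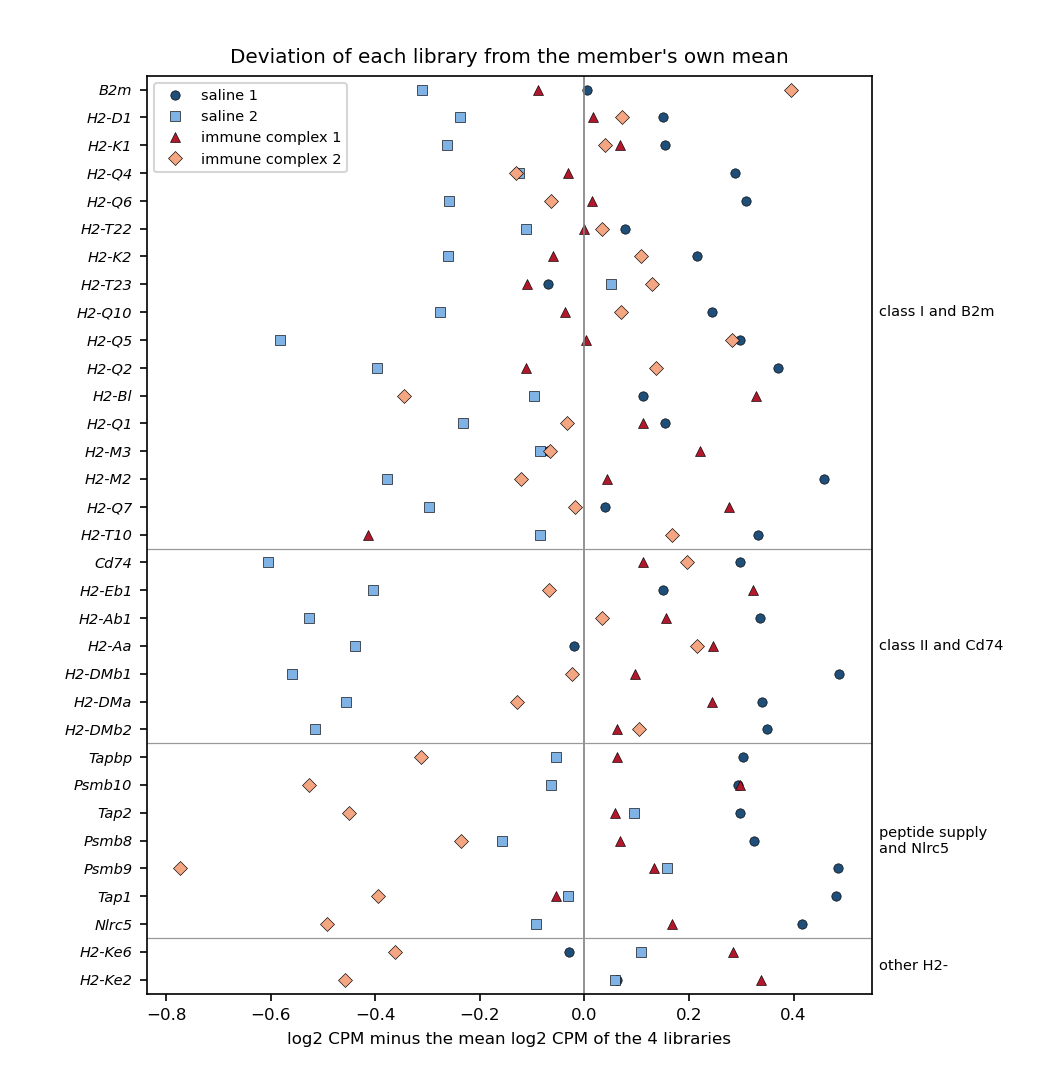
Deviation of each library from the member's own mean (log2 CPM) for 33 members, ordered as in the plot of RPKM levels. Saline 2 (light squares) is on the left for the class II members and for most of class I, immune complex 2 (light diamonds) is on the left for the 6 peptide supply genes, and saline 1 (dark circles) is the highest library for most members.

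The gap varied within both classes. For class II and its regulator it was 1.35 log2 units for Ciita, 1.04 for H2-DMb1, 0.90 for Cd74, 0.86 for H2-Ab1 and for H2-DMb2, 0.79 for H2-DMa, 0.55 for H2-Eb1 and 0.42 for H2-Aa. In class I it was 0.88 for H2-Q5, 0.82 for H2-M2, 0.76 for H2-Q2, 0.42 for H2-K1, 0.39 for H2-D1 and 0.31 for B2m. It was small for H2-M3 (0.014), H2-T22 (0.19) and H2-Bl (0.21), and reversed for H2-T23 (-0.12).

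Reads counted as unique made up 70.9% of the reads of members, against 84.1% of all gene reads. No source used here says what the counter took as unique. Of 33 members with at least 100 reads, 9 had over 95% unique reads, 17 had 50 to 95% and 7 had under 50%. Cd74 (99.9%), H2-Aa (100%), H2-Ab1 (99.2%) and H2-Eb1 (98.9%) were nearly free of shared reads, whereas H2-K1 had 84.5% and H2-D1 82.7%. The Qa-2 and T region copies had less, with 64.8% for H2-Q6, 60.8% for H2-Q7, 52.2% for H2-Q5 and 48.1% for H2-T22. H2-DMb1 and H2-DMb2, copies of each other, had 65.2% and 66.1%.

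Among these 33 members, the 5 whose region lies more than 95% inside another annotated gene had the lowest shares, 17.2 to 36.6%. The other 28 had 48.1 to 100%. The 5 were H2-Ke6 in Gm20427, B2m in Patl2, H2-T10 in Gm7030, Psmb10 in Gm16156 and H2-T23 in A930015D03Rik. Under 100 reads, H2-T24, 100% inside A930015D03Rik, had 71.1% unique of 76 reads, and H2-Oa, 100% inside BC051537, had 37.5% of 8. Sequence shared between transcripts followed the shares in part. Of the 50-base windows of its transcripts, H2-Ke6 shared 70.5% with other genes, H2-T22 53.5%, H2-T10 50.4%, H2-Q4 36.4% and H2-K1 9.6%. For Cd74, H2-Ab1, B2m and Psmb10 it was 0%. Windows were matched on either strand, and transcripts of an overlapping gene counted as those of another gene. The share therefore mixes copies with overlap. All of the H2-Ke6 share was with Gm20427. The overlapping genes A930015D03Rik, BC023719 and Gm11131 held 26.5% of the windows of H2-T22, 24.9% of H2-T10 and 15.3% of H2-Q4. Across the 33 members Spearman's rho between the 2 shares was -0.58, a description over genes that share libraries and sequence. Counting only unique reads kept the sign of the fold change for 30 of 35 members. The fold changes of these shared members, and how their reads divide among copies, remain uncertain in either count, and Psmb9 and Tap1 also overlap each other.

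**Figure D4:**
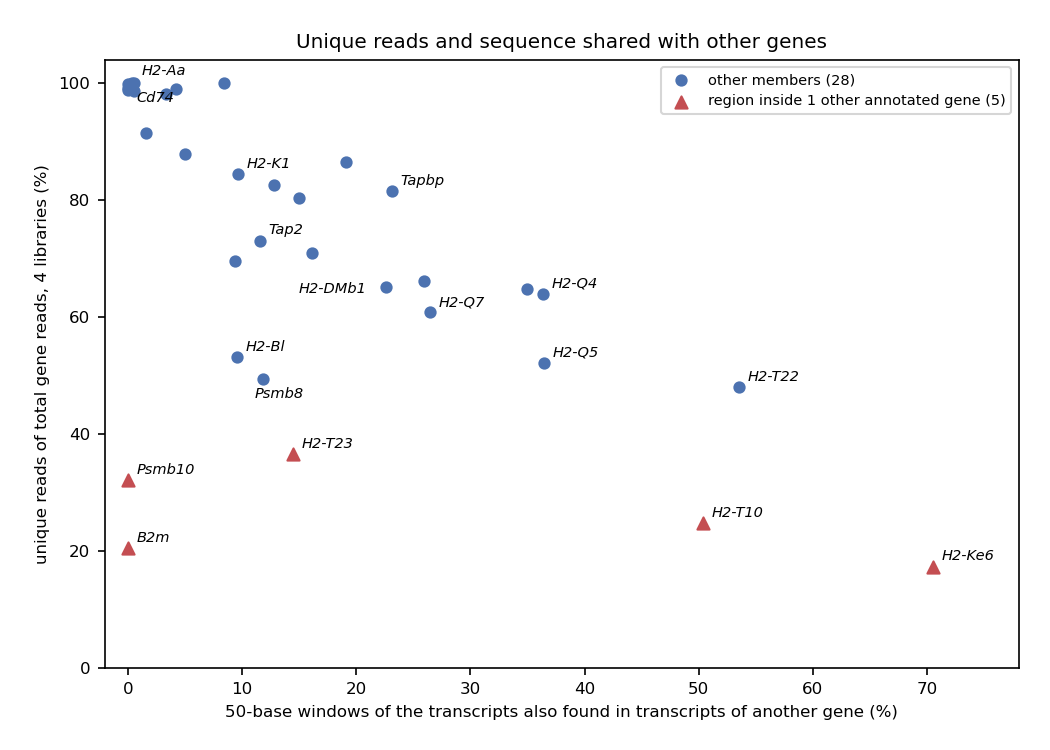
Percent of reads counted as unique, over the 4 libraries, against the percent of 50-base transcript windows also found in another gene. Shown are 33 members with at least 100 reads, and an overlapping gene counts as another gene. The 5 members inside another annotated gene (triangles) lie at 17.2 to 36.6% unique reads, 2 of them (B2m and Psmb10) with 0% shared windows.

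Other genes of the pathway gave no call either. The lists were chosen with earlier results known. Among 12 genes of class I loading and trimming, 6 were above 0 and 6 below, and the lowest p values belonged to Pdia3 (0.28 ± 0.18), a disulfide isomerase of the loading complex, and Tapbpl (-0.42 ± 0.27), a tapasin relative. Of 7 constitutive proteasome genes, 5 were above 0 and 2 below, these being Psmb5 (-0.20 ± 0.23) and Psmb6 (-0.15 ± 0.23). Class II processing had 8 of 9 genes above 0. Its leading gene was Ctss, the protease that degrades the invariant chain, with 9.59, 7.85, 14.2 and 19.3 CPM, higher in both immune complex libraries than in both saline libraries. Its log2 fold change was 0.94 ± 0.25, with an unadjusted p of 0.00729 and an adjusted p of 0.805. Slc11a1, a metal transporter of phagosomes, had 0.68 ± 0.40.

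Of 5 tested MHC-like genes, 1 was above 0 and 4 below. Cd1d1, which presents lipids to NKT cells, had 1.72, 6.01, 13.2 and 9.21 CPM (1.53 ± 0.54, adjusted p = 0.976), while Mr1, which presents vitamin B metabolites, had -0.25 ± 0.23. Transcription factors of the MHC promoters and genes of interferon gamma signalling had 8 of 15 above 0 and 7 below. The nearest to the threshold were Rfx5 (-0.30 ± 0.22), of the complex on the X box, and Nfyc (0.20 ± 0.16), a subunit of NF-Y. Ifng had 1 read in all. Irf1, an interferon regulatory factor, had a log2 fold change of -0.09. Of the 4 tested costimulation genes, 1 was above 0 (Cd86, 0.31 ± 0.39) and 3 below, led by Icosl (-0.54 ± 0.26).

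Cell type markers were read beside these values. Macrophage markers were above 0 for 14 of 14 genes, and for 10 of them the immune complex libraries lay above both saline libraries (all genes 15.4%). Their sums were 268, 291, 322 and 369 CPM, and 0 of 14 passed the test. Emr1, which encodes a macrophage surface receptor, had 1.29 ± 0.28 (adjusted p = 0.711) and Lyz2, lysozyme, 0.98 ± 0.24 (adjusted p = 0.772). Saline 1 had the lower macrophage sum of the saline libraries but the higher class II sum.

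Dendritic cell markers had 9 of 10 tested genes above 0, with sums of 19.4, 20.3, 26.4 and 25.0 CPM, led by Siglech (2.05 ± 0.63) and Clec9a (0.65 ± 0.30). Of the B and plasma cell list 1 gene was tested, Cd79b (53, 23, 7 and 10 reads, -2.22 ± 0.58, adjusted p = 0.805). Ms4a1 had at most 4 reads in any library. T and NK markers summed to 4.48, 4.49, 4.75 and 5.95 CPM, with 4 of 5 tested genes above 0, among them Ncr1 (0.64 ± 0.45) and Cd4 (0.59 ± 0.42), and Cd3e had 1, 3, 1 and 1 reads. The B and plasma cell list summed to 3.15, 1.66, 1.03 and 1.09 CPM, so both lymphocyte lists stood far below the macrophage list.

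Endothelial markers summed to 702, 573, 594 and 527 CPM, with 4 above 0 and 6 below, and the lowest p values were those of Plvap (-0.68 ± 0.28) and Flt1 (0.32 ± 0.17). Their order was highest in saline 1 and lowest in immune complex 2, which was also the order of the peptide supply sum at its ends. Adipocyte markers summed to 56.9, 634, 2074 and 1603 CPM (8 of 8 above 0, led by Lep at 4.15 ± 0.98 and Fabp4 at 1.95 ± 0.62). Urothelium markers summed to 75.5, 92.3, 16.4 and 18.3 CPM (7 of 7 below 0, led by Psca at -3.18 ± 0.32 and Upk3b at -2.91 ± 0.48). Tubule and podocyte markers, which define the labelled tissue, were abundant at 15305, 13865, 12067 and 13749 CPM, with 5 above 0 and 5 below, among them Aqp2 (-1.44 ± 0.53) and Umod (-0.22 ± 0.22). No gene of these lists had an adjusted p under 0.05. The part of any of these cell types in the values of the members was not tested.

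The authors' deposited table of their own comparison holds 35 of the members. Of these, 0 members in the authors' deposited table had an adjusted p under 0.05 and 0 an unadjusted p under 0.05, while 80 of its 16128 genes had an adjusted p under 0.05. There the groups are coded in the opposite sense, with saline as the numerator. With the sign turned, the authors' deposited table gives 0.33 for H2-Aa, 0.16 for Cd74, -0.31 for Psmb9 and -0.29 for Tap1. DESeq2 run here on the same counts gave -0.59 for Psmb9 and -0.47 for Tap1. How the deposited fold changes were estimated is not stated, so their sizes are not comparable with the values above.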

How the data were processed

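Per the labels' protocols, kidney kept in RNAlater went to a sequencing company for extraction and Illumina libraries. STAR 2.5.2b, DESeq2 and the build GRCm38 stand in the submitters' processing notes, without a role. Per the file headers, each deposited sample table holds raw read counts (total and unique, in genes, exons and introns), RPKM by the authors, and gene and exon lengths. Exon and intron reads added up to total gene reads for 100% of genes, so reads in introns enter the counts. How reads of overlapping genes were assigned is not stated. RPKM was recovered from exon reads, exon length and library total for 99.7% of genes. The authors' deposited comparison gives a log2 fold change and SE, p-values and adjusted p-values, and a mean signal of scaled counts per gene. No source used here names the read counter, annotation release or strand setting.

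Libraries held 19675879 to 22791960 gene reads, 83.4 to 85.0% of them unique, with 7.39 to 9.96% in introns. Total gene reads were tested over the whole table with edgeR 4.0.16 under R 4.3.3 (glmQLFit and glmQLFTest after filterByExpr and TMM), immune complex against saline (2 libraries each), with Benjamini-Hochberg adjustment at 0.05. Degrees of freedom were 2 residual and 4.61 prior, with a common biological coefficient of variation of 0.212. CPM uses TMM-scaled library sizes. Within-group gaps used log2(CPM + 0.05). Replicates were no copies of each other, with a chi-square over degrees of freedom of 13.8 for the saline pair and 46.0 for the immune complex pair. Alternatives were unique reads, exon reads, RLE scaling, DESeq2 1.42.0, limma-voom (limma 3.58.1), no low-count filter, a replicate block and leaving out each library. The script was tested on simulated data.

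Members with a mean of at least 1 CPM are named with every library's value, and from each list the 2 tested genes with the smallest p. Other genes named were chosen after their values were seen. The members and gene lists were chosen with earlier results of these data known. All 52 members matched GENCODE M21 by gene ID. Windows of 50 bases and the coding stretch come from its transcripts, and promoters come from RefSeq (GRCm38.p6). The Cd74 sequence is not shown.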

Additional observations from a re-analysis of the deposited data

How the results depend on the processing

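No member was called under any of the 12 alternatives run. The count of all genes called, 0 on total gene reads, was also 0 with exon reads, RLE scaling and limma-voom. It was 1 with unique reads, 2 without the low-count filter, 96 with DESeq2 and 55 with the replicate number as a block. Leaving out 1 library gave 0 to 279 genes, the most without saline 2 and 47 without saline 1, where the lone saline library is assumed to vary like the other group. Over all tested genes, the gap of replicate 1 minus replicate 2 was only weakly correlated between the groups (-0.135). For the tested members its median was above 0 in both groups (0.42 log2 units in saline, 0.12 in immune complex). The labels do not say that shared numbers pair samples, so they were not taken as pairs. Crossed pairs, added after seeing the data, gave 160 genes called in a crossed block and 0 members.

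The class II sum differed by -0.10 to 0.68 log2 units when 1 library was left out, the class I sum by -0.01 to 0.36 and the peptide supply sum by -0.51 to -0.08. Another read count or scaling moved these sums by less than their spread.

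Of 33 members, 9 kept the sign of their fold change under every alternative with a fold change, and 24 changed it at least once. With unique reads the sign changed for H2-DMb1 (0.017), H2-Q2 (0.054), H2-Q6 (0.0054), H2-Q10 (-0.023) and H2-T22 (-0.015). With exon reads it changed for H2-K2 (-0.024), H2-DMb1 (0.0089), H2-Q2 (0.012) and H2-Bl (-0.087). With limma-voom and with the replicate block it changed for H2-DMb1 (0.079 and 0.065), H2-Q2 (0.028 and 0.024) and H2-Bl (-0.010 and -0.013). When 1 library was left out, the ranges were -0.65 to 0.17 for Psmb10, -0.41 to 0.079 for Psmb8, -0.15 to 0.76 for Cd74, -0.25 to 0.62 for H2-Ab1 and -0.020 to 0.54 for H2-Eb1. They were -0.28 to 0.52 for H2-DMa, -0.46 to 0.59 for H2-DMb1 and -0.28 to 0.60 for H2-DMb2. For class I they were -0.11 to 0.32 for H2-K1, -0.12 to 0.28 for H2-D1, -0.20 to 0.29 for H2-K2, -0.12 to 0.27 for H2-Q1, -0.36 to 0.41 for H2-Q2, -0.38 to 0.042 for H2-Q4, -0.16 to 0.73 for H2-Q5, -0.34 to 0.23 for H2-Q6 and -0.24 to 0.29 for H2-Q10. The T and M regions had -0.10 to 0.14 for H2-T23, -0.073 to 0.13 for H2-T22, -0.35 to 0.32 for H2-Bl, -0.55 to 0.031 for H2-T10 and -0.51 to 0.34 for H2-M2. H2-Ke2 had -0.52 to 0.28 and H2-Ke6 -0.40 to 0.24. The cause of these changes was not tested.

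The fit had 2 libraries per group and 2 residual degrees of freedom, and members under 1 CPM rest on few reads. Reads of copies and of overlapping genes limit 7 members with under 50% unique reads. The summed levels of adipocyte and urothelium markers also varied between the libraries.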
